A study of Mus musculus with 2 samples.

Results

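Serpina and Serpinb genes encode clades A and B of the serpin family of protease inhibitors. They were taken as all probes whose annotated gene symbol starts with Serpina or Serpinb followed by a digit, which gave 43 probes for 42 of the 19321 genes on the array. They comprised 6 genes of the Serpina1 cluster, 4 of the Serpina3 cluster, 9 other Serpina genes and 23 Serpinb genes. RNA came from whole liver of mice aged 24 weeks and was measured on 2 single-colour arrays. The tested array held RNA of the Twist2-Cre/A20fl/fl genotype, in which both alleles of A20 (gene Tnfaip3) are floxed and Twist2-Cre is carried as the recombinase, here called CKO. The control array held RNA of the Twist2-Cre genotype, so both livers carried the Cre allele and no Cre-negative liver was part of the comparison. Twist2-Cre is active in mesenchymal lineages, so hepatocytes, the main source of Serpina transcripts, are not the cells the driver is known for. The sources used here do not say how many animals were pooled into each RNA. With 1 array per genotype no replicates exist and nothing was tested, and precision is limited by the number of arrays.

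Serpins inhibit proteases by a suicide mechanism: the protease cuts an exposed loop of the inhibitor, the serpin changes shape, and the enzyme stays covalently trapped. Clade A serpins are mostly secreted by hepatocytes and circulate in plasma. The clade holds alpha-1-antitrypsin (Serpina1), antichymotrypsin-like inhibitors (Serpina3), an inhibitor of clotting factors (Serpina10) and members that carry hormones and do not inhibit proteases (Serpina6 and Serpina7). Clade B serpins lack a classical signal peptide and act mainly inside cells, where they protect leukocytes and epithelia from their own granule and lysosomal proteases. Mice carry expanded families of Serpina1, Serpina3, Serpinb1, Serpinb6 and Serpinb9 copies where humans carry a single gene of each.

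Promoter sequence from RefSeq (GRCm38.p6) was matched by symbol for 36 of the 42 genes, with 44 entries in all because some genes have more than 1 start. The Serpina1 promoters are shown first because these 5 copies lay close together in ratio. Each line gives 76 bases, 5′ to 3′ on the gene's strand, and capitals mark GTTAAT, the core letters of a hepatocyte nuclear factor 1 (HNF1) site, searched on both strands.

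Serpina1a, chr12:103863625-103863700, minus strand: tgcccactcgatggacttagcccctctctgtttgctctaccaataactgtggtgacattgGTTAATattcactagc
Serpina1b, chr12:103738200-103738275, minus strand: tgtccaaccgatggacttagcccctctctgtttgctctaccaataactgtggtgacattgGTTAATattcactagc
Serpina1c, chr12:103904962-103905037, minus strand: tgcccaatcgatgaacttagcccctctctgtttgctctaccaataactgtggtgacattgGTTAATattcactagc
Serpina1d, chr12:103773634-103773709, minus strand: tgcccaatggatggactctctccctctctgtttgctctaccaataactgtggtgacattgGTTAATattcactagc
Serpina1e, chr12:103956960-103957035, minus strand: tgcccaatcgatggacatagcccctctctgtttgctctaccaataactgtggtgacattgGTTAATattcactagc

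Across these 5 promoters 66 of the 76 bases were the same in every copy, and any pair shared 69 to 74 of them. Serpina1f had no match to these letters, and over the 250 bases before its start it shared 44.2% to 47.9% of aligned bases with the other copies. Over the same length, pairs among Serpina1a to Serpina1e shared 58.0% to 91.0%, and the lowest of these were pairs with Serpina1e. The Serpina3 promoters are shown because Serpina3f had the largest difference among the inhibitors and Serpina3n, another gene of the same cluster, a small one. Capitals mark a STAT-type palindrome (TTCNNNGAA) and C/EBP-type matches (TTGCNNAA), each searched on both strands over the 160 bases before the start.

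Serpina3f, chr12:104214384-104214543, plus strand: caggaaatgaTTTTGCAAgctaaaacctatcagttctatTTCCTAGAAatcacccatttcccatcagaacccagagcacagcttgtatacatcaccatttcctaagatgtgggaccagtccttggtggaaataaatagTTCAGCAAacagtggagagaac
Serpina3n, chr12:104406548-104406707, plus strand: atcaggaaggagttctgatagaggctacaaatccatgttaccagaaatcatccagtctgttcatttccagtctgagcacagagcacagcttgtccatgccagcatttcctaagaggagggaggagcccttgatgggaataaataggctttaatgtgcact

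The Serpina3f window held 1 STAT-type match, from 121 to 113 bases before the start, and C/EBP-type matches on either side of it. The Serpina3n window held none of these letters, although 60.6% of aligned bases were shared between both genes over 250 bases. These values are for 1 RefSeq start of Serpina3f. Before its other start the same STAT-type match lay at 210 to 202 bases, and 45% of aligned bases were shared with Serpina3n. One more sequence is shown, for Serpinb9, the Serpinb gene with the highest ratio, over the 100 bases before the start in its RefSeq entry. Capitals mark TTTCNNTTT, the core of interferon response elements, searched on both strands.

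Serpinb9, chr13:33004441-33004540, plus strand: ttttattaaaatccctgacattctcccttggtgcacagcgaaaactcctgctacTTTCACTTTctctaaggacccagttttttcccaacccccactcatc

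In the 250 bases before the start, the STAT-type palindrome was in 8 of the 44 entries (18.2%), from 6 genes, against 7.02% of all 32851 RefSeq promoters. Beside Serpina3f these were Serpina11, Serpina1f and Serpinb6a, with ratios between -0.055 and 0.005, and Serpinb2 and Serpinb9c, not above background on either array. The palindrome was thus not particular to the gene with the largest difference. The HNF1 core letters were in 9 of the 44 entries, against 6.43% of all promoters, and the C/EBP-type letters in 15 of 44, against 9.56%. Those C/EBP-type entries came from 12 genes, among them Serpina1b, Serpina1d and Serpina1e. The interferon core was in 6 of 44 entries, against 9.37% of all promoters. Beside Serpinb9 it was in Serpinb9b, Serpinb6a, Serpinb6b, Serpinb1b and Serpina12. The ratios of the genes with this core ran from -0.253 (Serpinb9b) to 0.363 (Serpinb9), so the letters were not particular to higher genes. The NF-kB consensus, also searched on both strands, was in 0 of 44, against 3.9%. In Serpinb6a a STAT-type match overlapped the interferon core. Near-identical copies and alternative starts of 1 gene are counted separately here, so these shares rest on fewer independent sequences than their counts. A match describes the letters only, and the absence of a match says nothing about binding.

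Of the 42 genes, 31 gave signal above background on both arrays and 11 on neither. A spot counted as above background when it exceeded the mean of the blank spots plus 2 SD, which was 72.17 on the CKO array and 69.49 on the control array. Ratios are log2 of CKO over control after background correction with an offset and quantile normalization, a scale that pulls the ratios of dim genes towards 0. The authors' deposited intensities, which carry no offset, are therefore given beside them. As a guide to size, the spot-to-spot spread of a ratio was 0.23 (SD of log2), from the 2 kinds of positive control spots printed 24 times each on every array. That spread covers spot error only and leaves out differences between animals. It comes from raw intensities without the offset, so for dim genes a ratio within it says little. Levels of different genes are not compared, because each probe has its own brightness.

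As a family the inhibitors were close to equal in both livers. Their median log2 ratio was -0.01, beside -0.02 over all 14143 genes above background on both arrays, with 13 of the 31 higher in CKO liver, 17 lower and 1 equal. Here and in the lists below, equal means a log2 ratio nearer to 0 than 0.005. By at least 2-fold, 1 of the 31 was higher in CKO liver, against 0.636% of all genes, and 0 were lower, against 0.0778% of all genes. That 1 gene was Serpina3f. Beyond the spot-to-spot spread in either direction lay 7 of the 31 (22.6%), against 12.8% of all genes. The 4 higher genes were Serpina3f, Serpina6, Serpinb9 and Serpina10, and the 3 lower genes were Serpinb1c, Serpinb1a and Serpinb9b. The other 24 lay within the spot-to-spot spread. A second guide is the SD of ratios among genes of similar level, in 20 classes by level. Serpina10 and Serpinb1a lay inside that SD (0.336 and 0.328), and Serpinb9b was just past it (0.243). Serpina3f, Serpina6, Serpinb9 and Serpinb1c lay beyond it. So did the dim genes Serpina9, Serpinb6c and Serpinb10 (SD 0.0444, 0.064 and 0.055), which lay within the spot-to-spot spread. The share of all genes beyond the SD of their class is not given here. This guide therefore serves single genes only and says nothing about the inhibitors as a group. In the authors' deposited values the 2-fold line was passed on the higher side by 2 of the 31, against 3.81% of genes, and on the lower side by 1, against 1.08%.

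**Figure D1:**
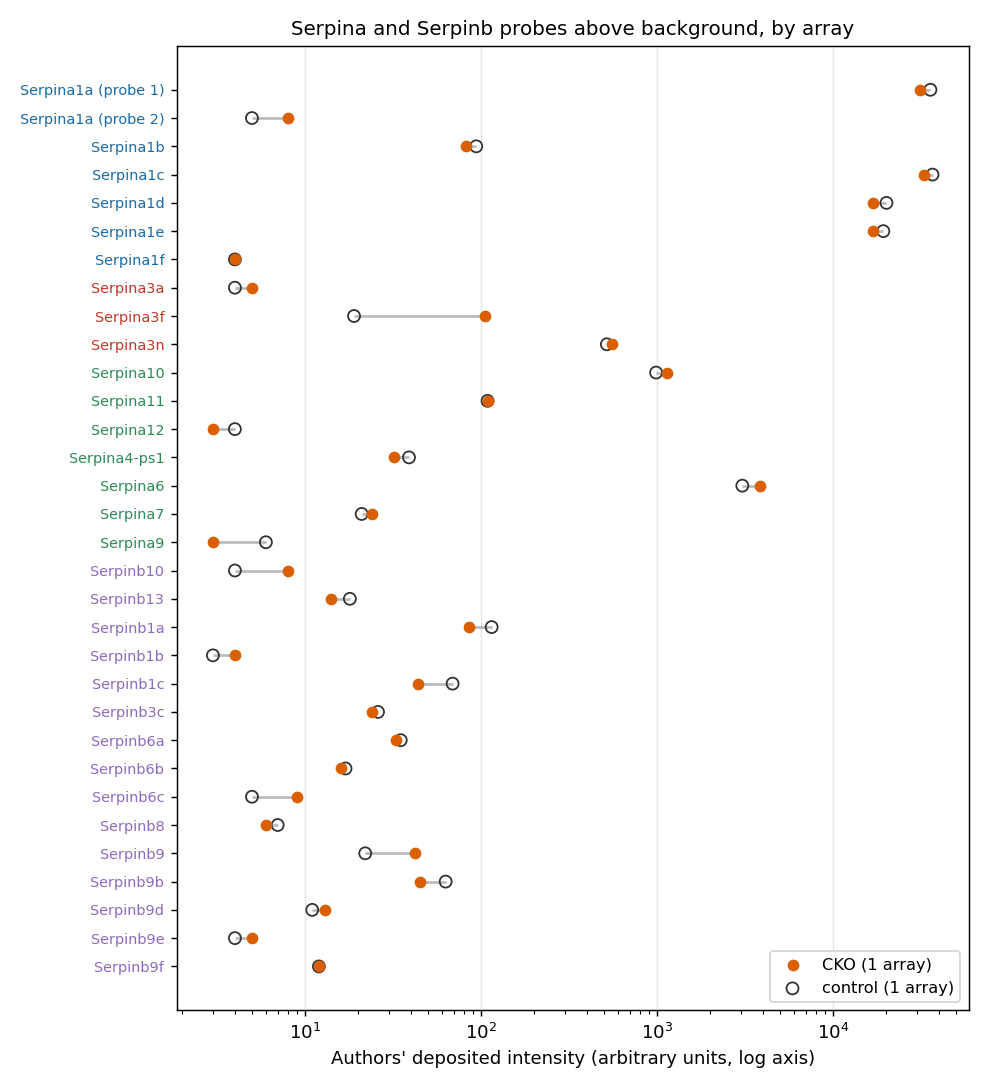
Authors' deposited intensity (log axis, arbitrary units) of each Serpina and Serpinb probe above background, with the CKO array as a filled point and the control array as an open one, 1 array each. Serpina3f has the widest gap, 106 in CKO liver against 19 in control liver, and points of 1 gene should be compared only with each other.

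**Figure D2:**
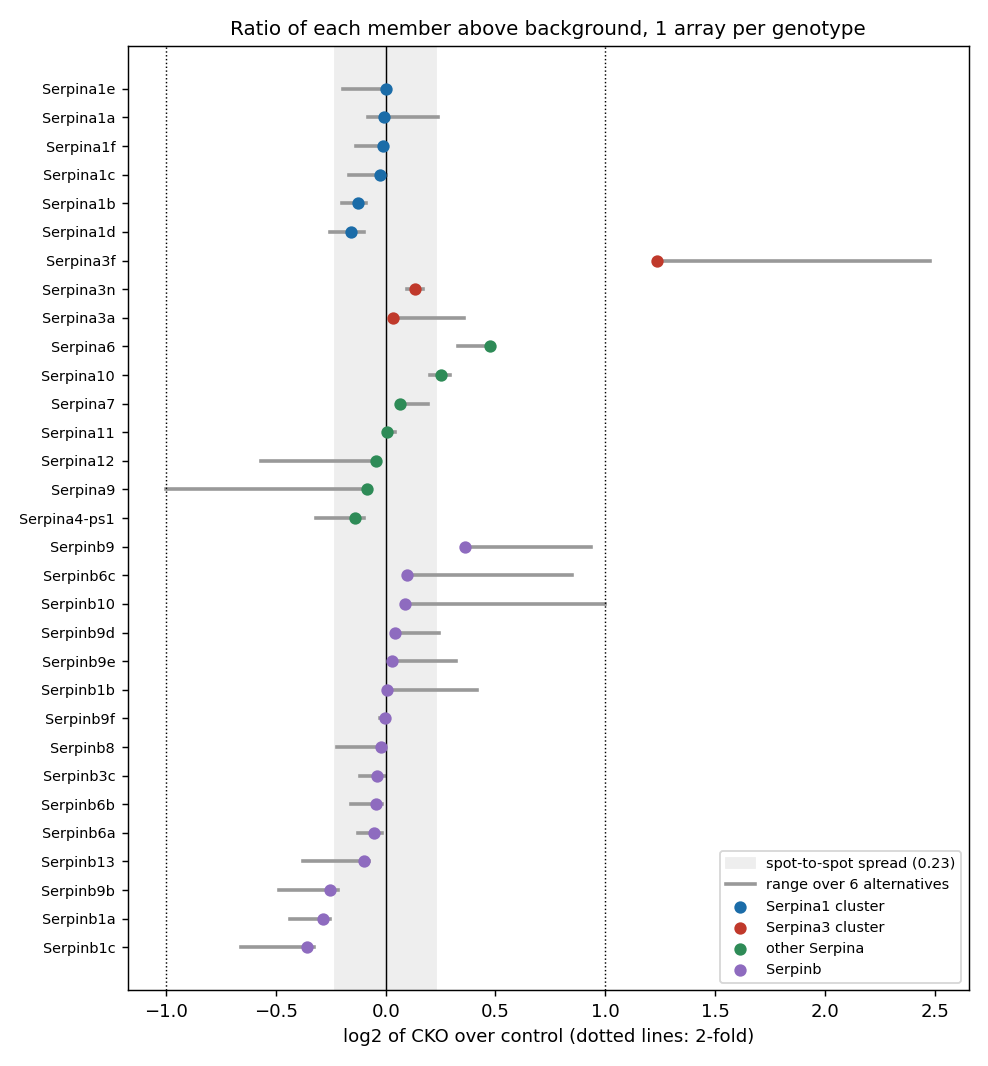
Log2 ratio of CKO over control for the 31 genes above background, with the grey line giving the range over 6 alternative ways of computing it and the shaded band the spot-to-spot spread of 0.23. Serpina3f is past 2-fold on the normalized scale, and lines are long for genes near background, such as Serpina9 and Serpinb10.

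The Serpina1 genes are the mouse copies of alpha-1-antitrypsin, known as the main plasma inhibitor of neutrophil elastase. On the normalized scale their values were slightly lower or equal in CKO liver. None of the copies differed beyond the spot-to-spot spread on that scale. The 6 genes of the Serpina1 cluster had a median log2 ratio of -0.02 and a range of -0.16 to 0.00, with 0 higher, 5 lower and 1 equal. Serpina1c had deposited intensities of 32744 in CKO liver and 36739 in control liver, a normalized ratio of -0.03. Serpina1d had 16870 in CKO liver and 20110 in control liver, a ratio of -0.16, the lowest of the cluster. Its ratio in the deposited values was -0.25, just past the spread. Serpina1e had 16891 in CKO liver and 19309 in control liver, a ratio of 0.00.

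Serpina1a had 2 probes that read very different signals. The bright probe had deposited intensities of 31036 in CKO liver and 35758 in control liver, and the dim probe had 8 and 5. Their mean ratio was -0.01, where the bright probe alone gave -0.08 and the dim probe 0.07, so the sign of this gene is not settled. Serpina1b had 82 in CKO liver and 94 in control liver, a ratio of -0.12. Serpina1f lay at the edge of detection with 4 on both arrays. Which of the Serpina1 copies each probe reads was not tested.

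The bright Serpina1 genes lay at the top of the array's range, where scaling matters most. Serpina1a, Serpina1c, Serpina1d and Serpina1e were the 4 members with deposited intensities over 10000 on both arrays. Their median log2 ratio was -0.02 on the normalized scale and -0.20 in the deposited values. The 39 other genes over 10000 had a median of 0.03 (SD 0.18) on the normalized scale, 15 of them lower, and -0.09 (SD 0.18) in the deposited values, 30 of them lower. Serpina1a enters the deposited median as the mean of its probes' intensities, which the bright probe sets. With cyclic loess scaling Serpina1a and Serpina1c were at 0.02 and 0.00. Against the local background column of the scanner files Serpina1d turned to 0.39, but values in that column rose with the signal of the spot itself. Albumin, another abundant hepatocyte product, had 36770 in CKO liver and 37445 in control liver, a normalized ratio of 0.13.

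Alpha-1-antitrypsin folds in the endoplasmic reticulum of hepatocytes, and a list of 24 genes for glycoprotein folding and degradation there was read beside it. Of these 24, 9 were higher in CKO liver, 14 lower and 1 equal, with a median ratio of -0.04 and 0 past 2-fold in either direction. Pdia4, a disulfide isomerase, had 310 in CKO liver and 391 in control liver, a ratio of -0.26, the largest of the list. Hspa5, the main chaperone of the compartment, had 4166 in CKO liver and 5424 in control liver, a ratio of -0.22. Of 12 hepatocyte transcription factors, 3 were higher and 9 lower, with a median of -0.04. They included Foxa3 (109 in CKO liver, 57 in control liver, ratio 0.59) and Foxa2 (144 in CKO liver, 226 in control liver, ratio -0.51). Hnf4a, a regulator of many hepatocyte genes, had 1051 in CKO liver and 863 in control liver, a ratio of 0.33, and Onecut1 had 53 in CKO liver and 71 in control liver, a ratio of -0.24.

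In the Serpina3 cluster, which holds the mouse counterparts of antichymotrypsin, Serpina3f had by far the largest difference. Its deposited intensity was 106 in CKO liver and 19 in control liver, and its normalized log2 ratio was 1.24. On the normalized scale this is a 2.35-fold difference, and in the deposited values a 5.58-fold one. Among the 14143 genes used, 60 had a larger normalized ratio. The raw spot read 198.2 on the CKO array and 89.46 on the control array, beside blank spots averaging 69.27 on the CKO array and 67.15 on the control array, so the control value stood close to background. Over 6 alternative ways of computing the ratio it ran between 1.24 and 2.48. Against the local background column it was 0.52, under 2-fold.

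Serpina3n, an acute phase protein of the liver that inhibits granzyme B and cathepsin G, differed far less. It had 556 in CKO liver and 519 in control liver, a ratio of 0.14, within the spot-to-spot spread, and it turned to -0.54 against the local background column. Serpina3a had 5 in CKO liver and 4 in control liver, too near background to rank (ratio 0.03). Serpina3b was not above background on either array. The 3 measured genes were thus all above 0, with a median of 0.14, and only Serpina3f was beyond the spread. Several further copies of the cluster, among them Serpina3c, Serpina3g, Serpina3k and Serpina3m, are not analysed here. Whether the Serpina3f probe also takes up transcripts of those copies was not tested.

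Other acute phase genes were read beside Serpina3n in the same livers. Of 26 genes induced by interleukin-6 and STAT3 in hepatocytes, 21 were higher in CKO liver, 3 lower and 2 equal, with 5 at least 2-fold higher and a median ratio of 0.27. Saa1, which encodes serum amyloid A, had 4707 in CKO liver and 1047 in control liver, a ratio of 2.20, and Saa3 and Saa2 had ratios of 2.21 and 2.19. Lcn2, the iron-siderophore-binding protein lipocalin-2, had 546 in CKO liver and 113 in control liver, a ratio of 1.93. All 19 measured genes of an interferon-gamma list were higher in CKO liver, with 13 past 2-fold and a median of 1.43. Of 17 NF-kB target genes, 16 were higher and 1 lower, with 3 at least 2-fold higher and a median of 0.27. These lists were drawn up with earlier results of these data known and describe the setting of Serpina3f only. Macrophage markers moved with them: the summed deposited intensity of 14 measured Kupffer cell and macrophage genes was 7278 in CKO liver and 2437 in control liver, with 14 of 14 higher. Their part in the Serpina3f difference was not tested, and in whole liver a different number of cells of a type and a different amount of RNA per cell cannot be told apart.

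**Figure D3:**
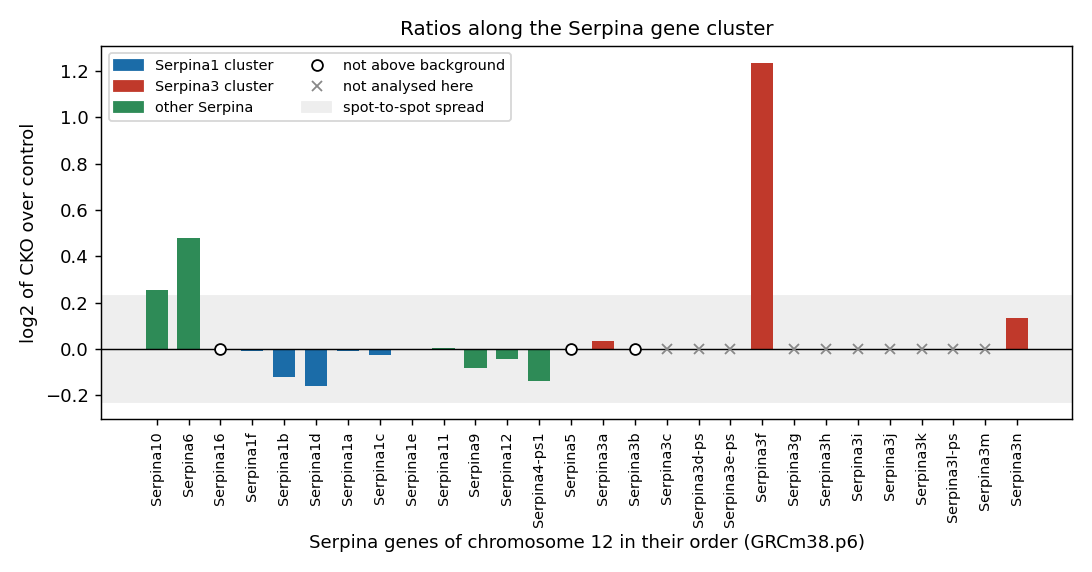
Log2 ratio of CKO over control for the Serpina genes of chromosome 12 in their order along the chromosome, with bars for genes above background, open circles for genes not above background and crosses for genes not analysed here. Serpina6 and Serpina10 at one end and Serpina3f near the other pass the shaded spot-to-spot spread, and the Serpina1 copies between them do not.

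All Serpina genes but Serpina7 lie together on chromosome 12. In RefSeq, 28 genes and pseudogenes there match the naming rule, 18 of them with a probe, and all 23 protein-coding genes in the span belong to the family. Along that order the ratios did not run in 1 direction. Serpina10 and Serpina6, neighbours at one end, were both higher in CKO liver beyond the spread. The Serpina1 copies after them lay between -0.16 and 0.00. Serpina11, Serpina9, Serpina12 and Serpina4-ps1 lay between -0.14 and 0.01, and Serpina3f stood alone among the measured genes of the far end.

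Serpina6 encodes corticosteroid-binding globulin, the plasma carrier of glucocorticoids. Its deposited intensity was 3834 in CKO liver and 3052 in control liver, and its normalized log2 ratio of 0.48 is a 1.39-fold difference. Over 6 alternatives its ratio ran between 0.33 and 0.48. Serpina10 encodes the protein Z-dependent inhibitor, which inactivates clotting factors Xa and XIa. It had 1135 in CKO liver and 988 in control liver, a ratio of 0.25, with 0.20 in the deposited values, which is inside the spread. Against the local background column the ratios of Serpina6 and Serpina10 were 4.31 and 2.21. Serpina7 encodes thyroxine-binding globulin and had 24 in CKO liver and 21 in control liver, a ratio of 0.06.

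The difference in Serpina6 was larger than that of any measured gene in a list of hormone carriers and negative acute phase proteins. That list had 9 measured genes, 4 higher, 4 lower and 1 equal, a median of 0.00 and a range of -0.22 to 0.13. Rbp4, the plasma carrier of retinol, had 12723 in CKO liver and 15988 in control liver, a ratio of -0.22. Of 11 growth hormone and STAT5 target genes, 5 were higher and 6 lower, with a median of -0.02. Igfals, which encodes a subunit of the circulating IGF complex, had 542 in CKO liver and 821 in control liver, a ratio of -0.50. Hepatocyte markers were near equal, with 9 of 17 higher, 8 lower, a median of 0.03 and a summed deposited intensity of 205568.5 in CKO liver and 220933 in control liver.

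The other Serpina genes were dim. Serpina11 had 109 on both arrays (ratio 0.01). The kallistatin pseudogene Serpina4-ps1 had 32 in CKO liver and 39 in control liver, a ratio of -0.14. Serpina9, known from germinal centre B cells, had 3 in CKO liver and 6 in control liver, a ratio of -0.09. That gene is the 1 at least 2-fold lower in the deposited values. Serpina12, the adipokine vaspin, had 3 in CKO liver and 4 in control liver. Deposited values are whole numbers, and blank spots varied by an SD of 1.19 on the CKO array in the same units, and by less on the control array, so single-digit values cannot carry a fold. Serpina5, the protein C inhibitor, and Serpina16 were not above background on either array. Of the 7 measured genes of this group 4 were higher and 3 lower, with a median of 0.01.

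A general list of serine proteases of liver and plasma was read beside the inhibitors, and it showed no common direction. Of 15 measured genes in that list, 8 were higher in CKO liver and 7 lower, with a median ratio of 0.03 and 0 past 2-fold. F11, the precursor of factor XIa and thus a target of the Serpina10 protein, had 304 in CKO liver and 206 in control liver, a ratio of 0.50. C1ra, Habp2 and Tmprss6 had ratios of 0.42, 0.36 and -0.29. Of 5 measured serpins of other clades, 3 were higher and 2 lower, with a median of 0.16 and a range of -0.15 to 0.26. They included Serping1, the C1 inhibitor, with 6881 in CKO liver and 5916 in control liver (ratio 0.26). Serpinc1, antithrombin, had 4023 in CKO liver and 4675 in control liver (ratio -0.02).

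Among the intracellular Serpinb genes the largest differences ran both ways. Of 23 genes, 15 were above background on both arrays, 6 of them higher and 9 lower in CKO liver, with a median ratio of -0.02 and a range of -0.36 to 0.36. None was at least 2-fold different on the normalized scale. All 15 had deposited intensities of 115 or less on both arrays. Serpinb9, the inhibitor of granzyme B that protects cytotoxic lymphocytes and antigen-presenting cells, was the highest. It had 42 in CKO liver and 22 in control liver, a normalized ratio of 0.36 and a 1.91-fold difference in the deposited values. Over 6 alternatives its ratio ran between 0.36 and 0.93, and it was 0.00 against the local background column.

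Serpinb1a encodes the mouse leukocyte elastase inhibitor, which acts on neutrophil elastase, proteinase 3 and cathepsin G, and it was lower in CKO liver. It had 85 in CKO liver and 115 in control liver, a ratio of -0.29. Its copy Serpinb1c had 44 in CKO liver and 69 in control liver, a ratio of -0.36, the lowest of all 31 inhibitors. Against the local background column Serpinb1c was at 0.01, so its direction did not hold there. The copy Serpinb1b was near background with 4 in CKO liver and 3 in control liver. Serpinb9b, which inhibits granzyme M in the mouse, had 45 in CKO liver and 63 in control liver, a ratio of -0.25. Thus Serpinb9 and Serpinb9b, copies of 1 ancestral gene, differed in opposite directions.

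The other Serpinb genes lay within the spread, which the offset makes hard to pass for dim genes. Serpinb6a, the inhibitor of cathepsin G, had 33 in CKO liver and 35 in control liver (ratio -0.05), and its copies Serpinb6b and Serpinb6c had ratios of -0.04 and 0.10. Serpinb10, a serpin of blood-forming cells, had 8 in CKO liver and 4 in control liver. It is the other gene, beside Serpina3f, at least 2-fold higher in the deposited values, and its normalized ratio was 0.09. Serpinb8, an inhibitor of furin, had 6 in CKO liver and 7 in control liver (ratio -0.02). Serpinb13 and Serpinb3c, relatives of inhibitors of epithelia, had ratios of -0.10 and -0.04. Serpinb9d, Serpinb9e and Serpinb9f had ratios of 0.04, 0.03 and -0.01.

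Another 8 Serpinb genes were not above background on either array. They were Serpinb2, the plasminogen activator inhibitor of macrophages and epithelia, Serpinb5, known as maspin, and Serpinb3a, Serpinb3d, Serpinb9c, Serpinb9g, Serpinb11 and Serpinb12. Several of these are genes of skin and other squamous epithelia, and of 13 keratinocyte and squamous markers 9 were likewise not above background on either array.

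Proteases of the classes that Serpinb members inhibit were read beside them. Of 12 measured cysteine cathepsins and inflammatory caspases, 11 were higher in CKO liver and 1 lower, with a median ratio of 0.29 and 1 at least 2-fold higher. That 1 was Ctss, cathepsin S of antigen-presenting cells, with 303 in CKO liver and 80 in control liver, a ratio of 1.49. Ctsb, cathepsin B of lysosomes, had 4271 in CKO liver and 3295 in control liver, a ratio of 0.53. Ctsc, which activates granule proteases, and Casp1 had ratios of 0.55 and 0.47. Of 11 measured granzymes and serine proteases of neutrophils and mast cells, 5 were higher, 4 lower and 2 equal, with a median of 0.00. Gzmb, the target of Serpinb9, had 62 in CKO liver and 24 in control liver, a ratio of 0.63. Gzma, another granzyme of cytotoxic cells, had 36 in CKO liver and 5 in control liver, a ratio of 0.69. Mcpt8, a basophil protease, had 83 in CKO liver and 116 in control liver, a ratio of -0.33, and the mast cell protease Mcpt4 had 76 in CKO liver and 55 in control liver, a ratio of 0.28.

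Serpinb transcripts come from leukocytes and epithelia, and leukocyte markers differed more in some lists than in others. Sums below are of deposited intensities over the genes of a list above background on both arrays. The 6 measured NK and cytotoxic cell genes summed to 551 in CKO liver and 82 in control liver, with 5 higher and 1 lower, and Ncr1 and Klrb1c, the defining markers, were not above background on either array. Ccl5 carried most of that sum, and without it the other 5 genes summed to 133 in CKO liver and 52 in control liver. The 8 measured T cell genes summed to 189 in CKO liver and 70 in control liver, with 7 higher and 1 lower, and Cd3e was not above background on either array. The 10 measured monocyte genes summed to 3518 in CKO liver and 1097 in control liver, with 10 of 10 higher. Lyz2 carried most of that sum, with 2437 in CKO liver and 695 in control liver.

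Sums of several other leukocyte lists were near equal, although single genes in them were not. The 9 measured neutrophil genes summed to 613 in CKO liver and 552 in control liver, with 6 higher, 2 lower and 1 equal. Among them S100a9 had 50 in CKO liver and 15 in control liver, a ratio of 0.67. S100a8, Csf3r and Retnlg had ratios of 0.45, 0.40 and -0.11. Mmp8, Mmp9 and Ltf were not above background on either array. The 6 measured dendritic cell genes summed to 230 in CKO liver and 240.5 in control liver, with 3 higher and 3 lower. Itgae carried most of that sum, with 124.5 in CKO liver and 174 in control liver, a ratio of -0.18. Itgax had 28 in CKO liver and 4 in control liver, a ratio of 0.57, and Batf3 had a ratio of 0.29. The 7 measured B and plasma cell genes summed to 740 in CKO liver and 753 in control liver, with 5 higher and 2 lower. The 5 measured mast cell and basophil genes summed to 176 in CKO liver and 187 in control liver, with 3 higher and 2 lower. Outside the leukocytes, sums were lower in CKO liver. Endothelial genes summed to 910 in CKO liver and 1349 in control liver, with 2 of 11 higher and 8 lower. Cholangiocyte genes, of the bile duct epithelium, summed to 175 in CKO liver and 209 in control liver. Of these 8 genes 1 was higher and 7 were lower, with a median ratio of -0.155. The part of these cell types in the Serpinb differences was not tested.

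**Figure D4:**
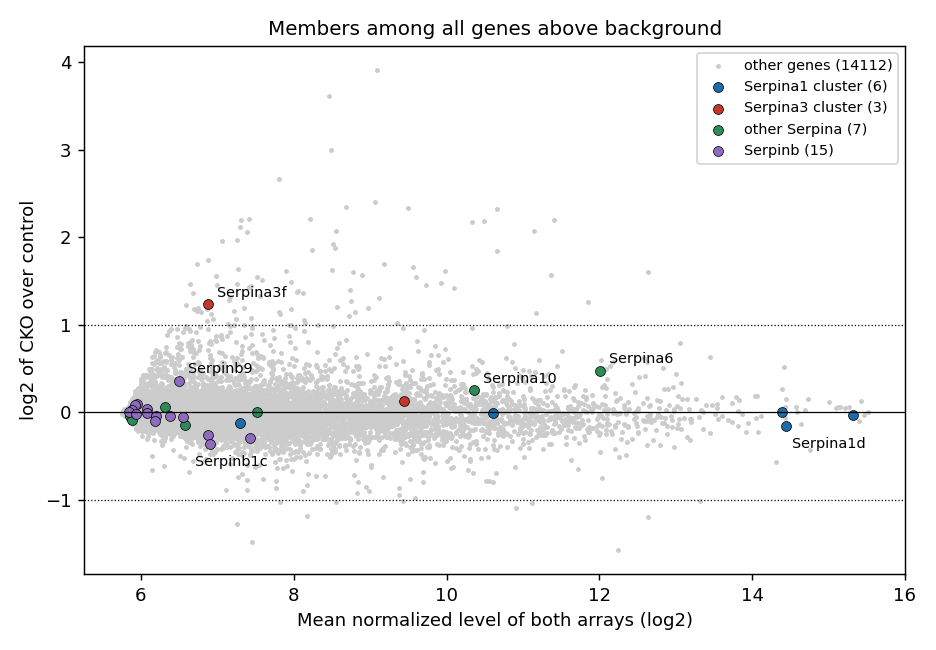
Log2 ratio of CKO over control against mean normalized level (log2) for all 14143 genes above background on both arrays, with the 31 inhibitors in colour and dotted lines at 2-fold. Serpina3f is the single coloured point past 2-fold, and ratios narrow at the dim end, where the offset pulls them to 0.

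Tnfaip3, the gene targeted in the CKO genotype, had 38 in CKO liver and 41 in control liver, a ratio of -0.07. Which part of the transcript the probe reads is not known here, so this value is no check of the deletion.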

How the data were processed

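Genotype labels put 1 liver RNA in each group. It was amplified, coupled to Cy5 and hybridized after TORAY's protocol, per the labels' protocols. The scanner files hold the spots' median intensity and a local background value, per the file headers. The authors' deposited value table holds intensity in whole numbers, by steps that are not stated; its values equal the spot minus the blank mean, times a factor per array (0.825 CKO, 0.859 control). Spot intensities were corrected with normexp against the blank mean (offset 50) and quantile-normalized (limma 3.58.1, R 4.3.3), then averaged over a gene's probes as log2. Flagged spots (0 CKO, 4 control) were left out. Of 23473 gene probes, 20690 had 1 symbol. The local background column served only as an alternative. Its log2 correlated with that of the spot across 20691 gene spots (r = 0.971 CKO, 0.988 control), and spots share array and position. Its median at gene spots over 1000 was 1248 on the CKO array and 1561 on the control array. At blank spots its median was 61.32 on the CKO array and 57.64 on the control array. Ratios against it are thus a weak check. The procedure was tested on simulated arrays. Only brighter gene spots were changed there, so the recovery of differences in dim genes was not covered. Members were named in full and other genes from each list's 4 largest ratios, with Serpinc1 and Tnfaip3 added for their roles. The members and lists were chosen with earlier results of these data known.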

Additional observations from a re-analysis of the deposited data

How the results depend on the processing

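The count of inhibitors at least 2-fold higher in CKO liver was 1, and it became 2 with the local background column (Serpina6 and Serpina10) and 2 in the deposited values (Serpina3f and Serpinb10). The count at least 2-fold lower was 0, and it became 1 in the deposited values (Serpina9). Both counts held under median scaling, cyclic loess, plain subtraction of the blank mean, an offset of 16, no filter on dim probes and the brightest probe per gene, and with a 1.5-fold threshold. The medians of the 4 gene groups moved by less than the spot-to-spot spread under every one of these alternatives. Of the 31 single ratios, and counting only values at least 0.005 from 0 on both sides, 8 had the opposite sign with the local background column (Serpina1d, Serpina3n, Serpina7, Serpina11, Serpinb1c, Serpinb9d, Serpinb9e and Serpinb10), 2 with cyclic loess (Serpina1a and Serpinb9f) and 1 each with plain subtraction, the offset of 16 and the deposited values. The 1 gene in each of those last settings was Serpina1a, as the mean log2 ratio of its probes, which disagree (0.24 in the deposited values, where the mean intensity of both probes gives -0.20). No paired analysis was possible because each genotype has 1 array. Signal over background limits what can be said of the genes with single-digit deposited intensities.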
